A study of Mus musculus with 7 samples.

Results

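The receptors and the JAK–STAT signalling chain that carry the interferon signal from the cell surface to the nucleus were followed in hepatocytes with and without *Wdr6*, through 9 genes: the receptor chains *Ifnar1*, *Ifnar2* and *Ifngr1*, the kinases *Jak1* and *Tyk2*, the transcription factors *Stat2*, *Irf9* and *Irf1*, and the inhibitor *Usp18*. They were taken by gene symbol from a table of read counts with 14819 rows. Each of the 9 had a row, and all 9 were among the 14779 genes tested. In WDR6-WKO hepatocytes the level of *Usp18* was 2.06-fold that of WT, *Stat2* 1.57-fold and *Irf9* 1.51-fold. The receptor chains *Ifnar1* and *Ifngr1* fell to 85.9% and 86.8% of WT, while *Ifnar2*, *Jak1*, *Tyk2* and *Irf1* did not pass the test.

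The RNA came from primary hepatocytes, the main cell type of the liver, of male wild-type (WT) mice and of male mice with whole-body knockout of *Wdr6* (WDR6-WKO). There were 4 WT and 3 WDR6-WKO libraries, and their replicate labels do not name the mice. WDR6-WKO mice carry a CRISPR–Cas9 deletion of exon 2 of *Wdr6* in every tissue, so immune cells of these mice lack the gene as well. Cells of both genotypes were obtained by collagenase perfusion and kept overnight before the analysis. No treatment and no addition of interferon is described for them. The comparison asks which transcripts differ in hepatocytes when *Wdr6* is missing.

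Type I interferons, the α and β forms, bind a receptor made of IFNAR1, which carries the kinase TYK2, and IFNAR2, which carries the kinase JAK1. The kinases phosphorylate STAT proteins, and STAT2 acts with IRF9 in the complex ISGF3, and ISGF3 switches on antiviral genes through the interferon-stimulated response element (ISRE). Interferon γ acts through IFNGR1, IFNGR2, JAK1 and JAK2, and STAT dimers then bind the gamma-activated sequence (GAS), for example in front of *Irf1*. USP18 is made in response to interferon, removes the ubiquitin-like protein ISG15 from its targets, and blocks further signalling at IFNAR2. In the liver, hepatocytes and the resident macrophages both respond to type I interferon.

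Promoter sequence was searched because several of these genes are known to be targets of the pathway they belong to. RefSeq promoters of GRCm38.p6, running from 250 bases before to 50 bases after the RefSeq start of the gene, were found for 8 of the 9 genes. *Usp18* was not matched. A pair of GAAA runs with 2 bases of any kind between them, the core of an ISRE, was searched on both strands and stood in 3.44% of 32851 promoters of the genome and in at least 1 promoter of 3.99% of genes. Among the 8 matched genes it was found in *Stat2*. The letters TTC and GAA with 3 bases of any kind between them, the core of a GAS, read alike on both strands and stood in 8.30% of promoters and in 9.55% of genes, and in promoters of *Ifnar1*, *Ifnar2* and *Irf1* among the 8. Each match is in capitals, between its flanks, 5′ to 3′ on the plus strand, which is also the strand of these genes. In *Stat2* the match reads on the opposite strand.
*Stat2*, ISRE letters, chr10:128270266-128270295: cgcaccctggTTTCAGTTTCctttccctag
*Irf1*, GAS letters, chr11:53769914-53769943: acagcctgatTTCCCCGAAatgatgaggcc
*Ifnar2*, GAS letters, chr16:91372559-91372588: tgccaaggccTTCCTGGAAgaagagagtac
*Ifnar1*, GAS letters, chr16:91485200-91485229: ggcgggggcgTTCACGGAAggggcggggcg
The *Stat2* match lies 222 to 213 bases before the RefSeq start of its gene. Those of *Irf1* and *Ifnar2* lie 90 to 82 and 214 to 206 bases before theirs. The match of *Ifnar1* spans the RefSeq start itself. For *Stat2*, *Ifnar1*, *Irf9*, *Jak1*, *Tyk2* and 1 of the 2 *Irf1* promoters, the RefSeq start differs from the GENCODE gene start given below. The *Ifnar1* match lies wholly before the GENCODE start at 91485238. The *Irf9* promoters begin at 55603735 and 55604329, after its GENCODE start at 55603571, so the sequence before that start was not searched. The promoters of *Irf9*, *Ifngr1*, *Jak1* and *Tyk2* held neither set of letters. Of the 4 genes with a match, *Stat2* was higher in WDR6-WKO hepatocytes, *Ifnar1* was lower, and *Ifnar2* and *Irf1* did not pass the test. The matches are a description of these letters and were not tested for binding.

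Levels are given as CPM, counts brought to 1 common library total with edgeR's TMM scaling, and differences as log2 fold changes of WDR6-WKO against WT with their standard error (SE). P values came from the quasi-likelihood test of edgeR and were Benjamini–Hochberg adjusted over the 14779 genes, and a gene was called higher or lower at an adjusted p under 0.05. The libraries held 17816913 to 23668940 counted reads. *Wdr6* itself was counted at 40.6 to 49.0 CPM in WT and 2.23 to 2.58 CPM in WDR6-WKO libraries. WDR6-WKO replicate 3, the library with the fewest reads, stood apart from the rest: without it, 2150 genes were called higher and 2083 lower, against 983 and 914 with all 7 libraries. Without it, 14.5% of the genes tested were called higher and 14.1% lower. Calls and list counts that change without it are given both ways.

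Of the 9 genes, 3 were called higher, where 6.65% of all genes tested were, and 2 were called lower, where 6.18% were, so 5 were called in either direction, against 12.8% of all genes. WT and WDR6-WKO libraries were fully separate in CPM for the same 5 genes, a separation seen with WDR6-WKO higher in 11.8% of all genes and with WDR6-WKO lower in 11.7%. The median log2 fold change of the 9 genes was 0.02, against 0.01 over all genes tested. The 9 genes thus differed in direction.

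**Figure D1:**
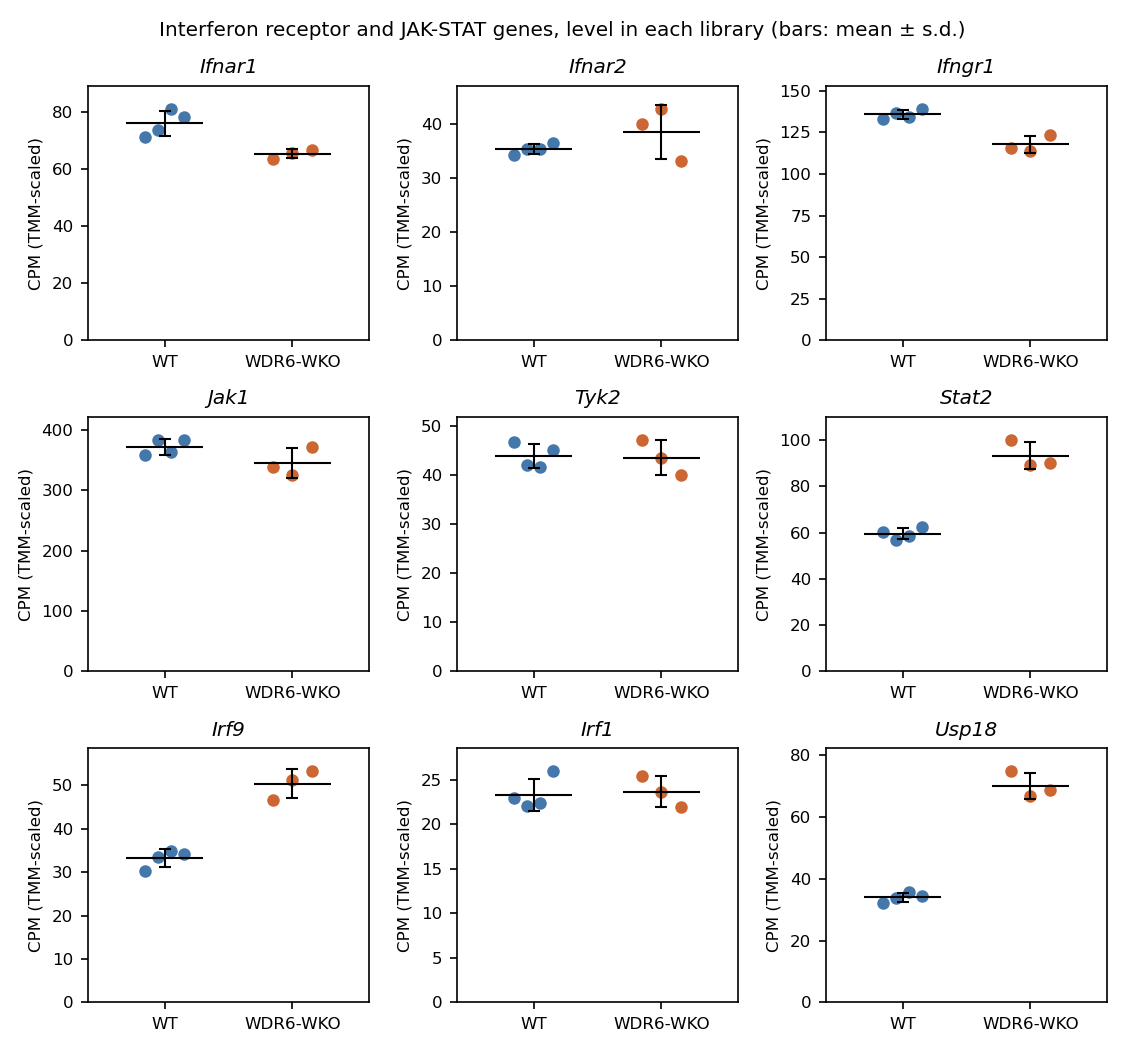
CPM (y axis, TMM-scaled, starting at 0) of each of the 9 genes in the 4 WT (blue) and 3 WDR6-WKO (orange) libraries, with a bar at the mean and whiskers of 1 s.d. The WDR6-WKO points of *Stat2*, *Irf9* and *Usp18* all lie above the WT points, those of *Ifnar1* and *Ifngr1* all lie below, and the other 4 genes overlap.

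*Ifnar1*, which encodes the TYK2-binding chain of the type I interferon receptor, lies on the plus strand at chr16:91485238-91507441 of GRCm38. It was counted at 71.1, 73.5, 80.9 and 78.2 CPM in WT replicates 1 to 4 and at 63.5, 65.4 and 66.7 CPM in WDR6-WKO replicates 1 to 3. Every WDR6-WKO library was below every WT library. The log2 fold change was -0.22 (SE 0.06, adjusted p = 0.0232), and exact two-sided permutation of the libraries gave p = 0.0286, the lowest value that its 35 splits can give. The call rested on several libraries: without WT replicate 3 or 4, or WDR6-WKO replicate 1 or 2, the adjusted p rose to between 0.0607 and 0.0927, with the direction kept.

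*Ifngr1*, the ligand-binding chain of the interferon γ receptor, lies at chr10:19591949-19610229 on the plus strand. Its levels were 133, 136, 134 and 139 CPM in WT and 116, 114 and 124 CPM in WDR6-WKO libraries. The groups were again separate, and WDR6-WKO replicate 3 came closest to the WT libraries. *Ifngr1* thus fell by 0.20 on the log2 scale (SE 0.05, adjusted p = 0.0132, exact permutation p = 0.0286). Without WT replicate 4 or WDR6-WKO replicate 1 or 2, the adjusted p was 0.0540 to 0.0615.

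*Ifnar2*, the JAK1-binding chain of the type I receptor and the docking site of USP18, lies on the same chromosome as *Ifnar1*, at chr16:91372783-91405589, with *Il10rb* between them. It was counted at 34.2, 35.4, 35.3 and 36.4 CPM in WT and at 39.9, 42.7 and 33.0 CPM in WDR6-WKO libraries. WDR6-WKO replicates 1 and 2 lay above all WT libraries, and replicate 3 lay below them. With all libraries the estimate was a log2 fold change of 0.13 (95% interval -0.04 to 0.30), which did not pass the test (adjusted p = 0.324). Without WDR6-WKO replicate 3 it was 0.22 (adjusted p = 0.00828). Of the exon sequence of *Ifnar2*, 9.46% is shared with the read-through gene *Gm21970* on the same strand, so reads there could have been split between the genes.

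The kinases differed less. *Jak1*, which serves the receptors of all interferon types, lies on the minus strand at chr4:101152367-101265282 and was counted at 358, 383, 363 and 382 CPM in WT and at 338, 325 and 372 CPM in WDR6-WKO libraries. WDR6-WKO replicates 1 and 2 lay below the WT range and replicate 3 within it. Its log2 fold change was -0.11 (95% interval -0.22 to 0.0028, adjusted p = 0.188), and -0.17 (adjusted p = 0.00211) without WDR6-WKO replicate 3.

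*Tyk2*, the kinase held by IFNAR1, lies on the minus strand at chr9:21104068-21131243. Its levels of 46.7, 41.9, 41.5 and 44.9 CPM in WT and 47.0, 43.5 and 40.0 CPM in WDR6-WKO libraries overlapped throughout. The difference on the log2 scale was -0.01 (95% interval -0.16 to 0.14, adjusted p = 0.964), with a sign that changed between scalings and with single libraries left out. The antisense gene *1700084C06Rik* overlaps 8.07% of the exon sequence of *Tyk2*, and without the strand of the reads the genes cannot be told apart there.

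*Stat2*, the STAT that is particular to ISGF3 signalling, lies on the plus strand at chr10:128270559-128292849, and its exons overlap those of no other gene. It was counted at 60.4, 56.7, 58.5 and 62.2 CPM in WT and at 99.9, 89.4 and 90.2 CPM in WDR6-WKO libraries. The lowest WDR6-WKO library stood far above the highest WT library, with 93.2 ± 5.88 CPM (n = 3, s.d.) against 59.4 ± 2.39 CPM (n = 4, s.d.). *Stat2* rose by 0.65 on the log2 scale (SE 0.06, adjusted p = 3.02e-06, exact permutation p = 0.0286), which ranked it 59 by p among all genes tested. It stayed between 0.59 and 0.68 in every alternative, the fits with 1 library left out included.

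*Irf9*, which gives ISGF3 its grip on DNA, lies on the plus strand at chr14:55603571-55610030. Its levels were 30.2, 33.5, 34.9 and 34.1 CPM in WT and 46.7, 51.1 and 53.2 CPM in WDR6-WKO libraries, without overlap. *Irf9* rose by 0.60 on the log2 scale (SE 0.07, adjusted p = 3.75e-05, exact permutation p = 0.0286), with a range of 0.56 to 0.65 over the alternatives. *Rnf31*, the neighbour whose exons share 123 bases with *Irf9* on the same strand, was counted at 30.7 ± 3.17 CPM (n = 4, s.d.) in WT and 32.0 ± 1.63 CPM (n = 3, s.d.) in WDR6-WKO libraries, a log2 fold change of 0.06 (adjusted p = 0.669).

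*Irf1*, a transcription factor induced by interferon γ, lies on the plus strand at chr11:53770014-53778374. It was counted at 22.9, 22.0, 22.4 and 26.0 CPM in WT and at 25.4, 23.6 and 21.9 CPM in WDR6-WKO libraries. The groups overlapped, and the log2 fold change was 0.02 (95% interval -0.16 to 0.20, adjusted p = 0.896), with a sign that turned when WT replicate 2 or WDR6-WKO replicate 1 was left out. *Gm17334* overlaps 3.40% of its exon sequence on the opposite strand, so reads there cannot be told apart without the strand.

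*Usp18*, the inhibitor of the type I receptor, lies on the plus strand at chr6:121245906-121270917. It was counted at 32.2, 34.0, 35.7 and 34.5 CPM in WT and at 74.9, 66.7 and 68.8 CPM in WDR6-WKO libraries, from raw counts of 638 to 688 and 1231 to 1803. The WT libraries lay close together and all WDR6-WKO libraries were well above them. The mean was 34.1 ± 1.47 CPM (n = 4, s.d.) in WT and 70.1 ± 4.27 CPM (n = 3, s.d.) in the WDR6-WKO group. A log2 fold change of 1.04 (SE 0.06, adjusted p = 5.64e-08, exact permutation p = 0.0286) placed *Usp18* at rank 10 by p of all genes tested. The range over the alternatives was 0.99 to 1.08. The lincRNA *Gm44148* overlaps 4.44% of the exon sequence of *Usp18* on the opposite strand, and had no row of its own.

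**Figure D2:**
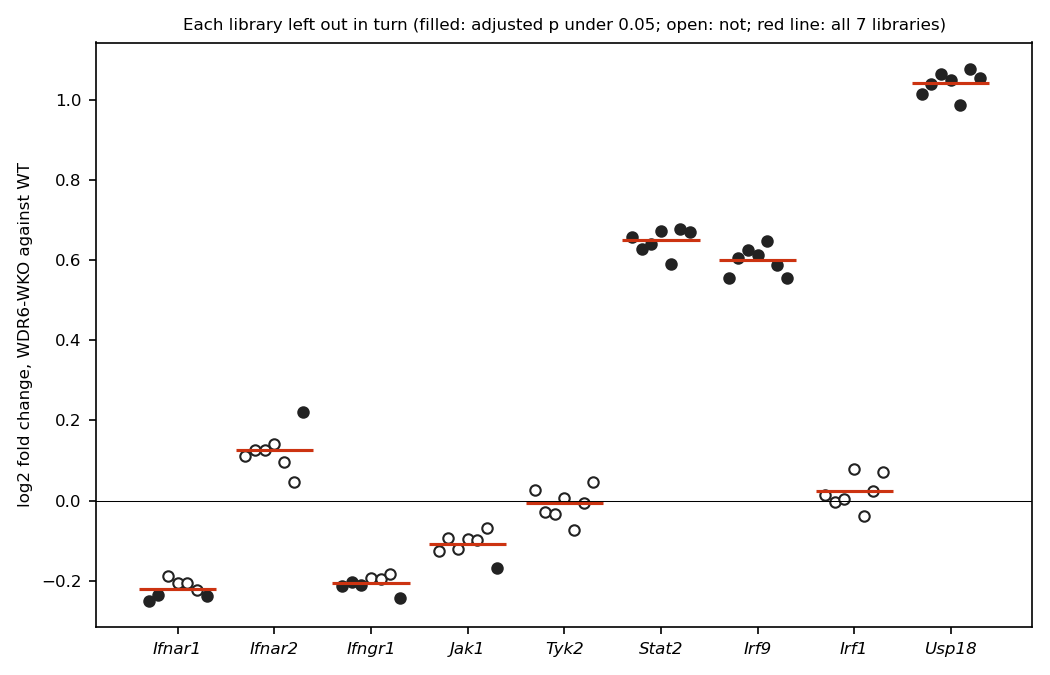
The log2 fold change (y axis, WDR6-WKO against WT) of each of the 9 genes (x axis) with each library left out in turn, filled where the adjusted p was under 0.05 and open where it was not, with a red line at the value from all 7 libraries. *Stat2*, *Irf9* and *Usp18* stay filled and close to their line, *Ifnar1* and *Ifngr1* lose the call in several fits, and *Ifnar2* and *Jak1* gain it without WDR6-WKO replicate 3.

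To compare levels between genes, CPM was divided by the length of the longest coding transcript in kilobases. In WT hepatocytes *Jak1* was highest, at 75.8 ± 2.59 CPM per kb (s.d., n = 4), followed by *Ifngr1* at 64.2 ± 1.20 CPM per kb. The other genes lay well below, from *Ifnar1* at 19.4 and *Usp18* at 19.3 CPM per kb, through *Stat2* at 13.5, *Ifnar2* at 11.6, *Irf9* at 11.2 and *Irf1* at 10.9, to *Tyk2* at 9.07 CPM per kb. Of these neighbours, *Ifnar1* and *Usp18*, *Ifnar2* and *Irf9*, and *Irf9* and *Irf1* overlapped in their WT ranges. In WDR6-WKO hepatocytes *Jak1* and *Ifngr1* still led, at 70.3 and 55.8 CPM per kb. *Usp18* at 39.6, *Stat2* at 21.2 and *Irf9* at 17.0 CPM per kb came next, ahead of *Ifnar1* at 16.7 CPM per kb, whose range overlapped that of *Irf9*. With the merged length of all exons in place of the transcript, the first 4 places in WT were the same and the order below them changed.

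**Figure D3:**
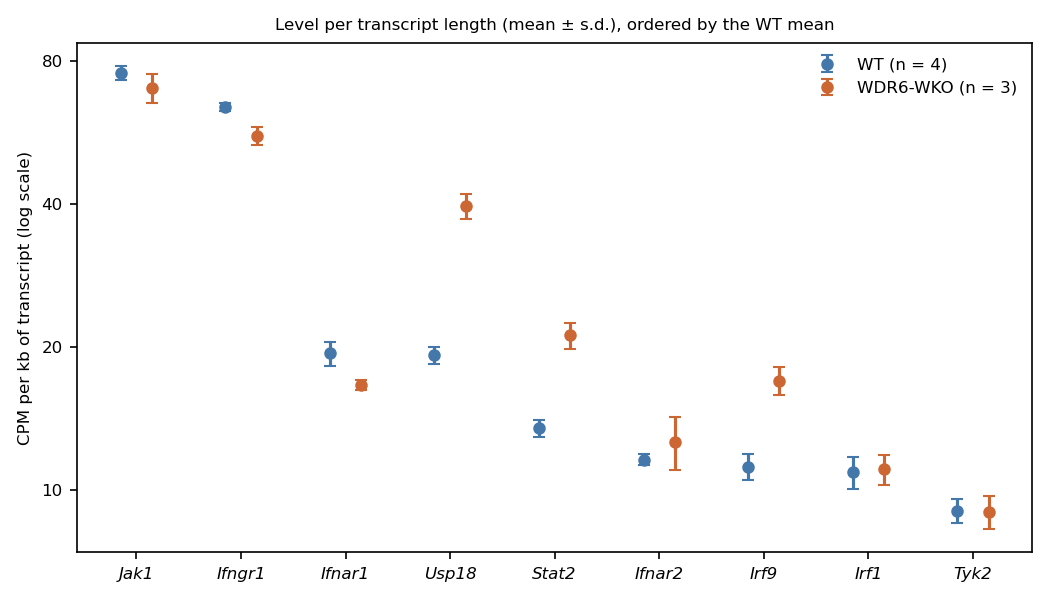
Level per length (y axis, CPM per kb of the longest coding transcript, log scale) of the 9 genes, ordered by the WT mean, with the mean and 1 s.d. of WT (blue, n = 4) and WDR6-WKO (orange, n = 3) libraries. *Jak1* and *Ifngr1* lie far above the rest in both groups, and the orange points of *Usp18*, *Stat2* and *Irf9* lie above the blue ones.

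The balance between partners or related genes was compared as the log2 ratio of their CPM within each library, for 7 pairs chosen after the values had been seen. The ratio of *Usp18* to its docking chain *Ifnar2* was -0.05 in WT and 0.87 in WDR6-WKO hepatocytes, which differ by 0.92. The ratio of *Usp18* to *Stat2* differed by 0.39, so *Usp18* was higher by more than *Stat2* was. The ratio of *Ifnar1* to *Ifnar2* fell by 0.33, that of *Ifngr1* to *Ifngr2* fell by 0.32, and that of *Irf9* to *Irf1* rose by 0.58. For each of these 5 ratios the libraries of the groups did not overlap, which is a description, since the pairs were chosen with the levels of their genes known. Within ISGF3, *Stat2* to *Irf9* differed by 0.05. *Jak1* to *Tyk2* differed by -0.10, and both of these ratios overlapped between the groups.

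The remaining genes of the pathway were taken from a list of 40 receptor chains, kinases, STATs, interferon regulatory factors, inhibitors, turnover factors and enzymes of ISG15 conjugation. Of the 39 with a row, 3 were called higher, 4 lower and 32 neither, near the 6.65% and 6.18% of all genes, with a median log2 fold change of -0.04 against 0.01 over all genes. Without WDR6-WKO replicate 3 the counts were 5 higher and 8 lower, beside 14.5% and 14.1% of all genes. None of 21 interferon genes, among them *Ifnb1* and *Ifng*, had a row in this table, whose smallest row total was 50 counts.

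The genes called higher were *Irf7*, *Isg15* and *Ube2l6*. *Irf7*, a transcription factor that amplifies type I interferon production, rose from 67.5 ± 5.14 CPM (n = 4, s.d.) to 128 ± 20.4 CPM (n = 3, s.d.), or 0.93 on the log2 scale (adjusted p = 7.71e-05). *Isg15*, the protein that USP18 removes, rose from 6.75 ± 1.73 to 24.7 ± 5.93 CPM, by 1.88 (adjusted p = 0.000420). *Ube2l6*, the enzyme that conjugates ISG15, rose by 0.50 (adjusted p = 0.000197). The activating enzyme *Uba7* and the ligase *Herc6* had log2 fold changes of 0.22 and 0.14 and did not pass the test.

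The other receptor chains did not pass it either with all libraries. *Ifngr2*, the second chain of the interferon γ receptor, was counted at 63.2 to 67.2 CPM in WT and at 71.2, 75.0 and 63.4 CPM in WDR6-WKO replicates 1 to 3, so replicate 3 alone overlapped WT. Its log2 fold change was 0.12 (adjusted p = 0.245), and 0.18 (adjusted p = 0.0133) without that library. Log2 fold changes were 0.34 for the interferon λ chain *Ifnlr1* (adjusted p = 0.0887) and -0.04 for its partner *Il10rb* (adjusted p = 0.811). *Jak2*, the kinase held by IFNGR2, fell from 101 ± 4.20 CPM (n = 4, s.d.) to 83.0 ± 5.92 CPM (n = 3, s.d.), a log2 fold change of -0.29 (adjusted p = 0.00458). Without WDR6-WKO replicate 3 it was -0.35 (adjusted p = 8.40e-06). Of the other STATs, *Stat3*, *Stat5a*, *Stat5b* and *Stat6* lay between -0.22 and -0.07 and did not pass the test, and *Stat4* had no row. *Stat5a* and *Stat3* were called lower without WDR6-WKO replicate 3, at -0.24 and -0.11 (adjusted p = 0.0272 and 0.0497).

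Among the other interferon regulatory factors, *Irf2* was lower, with a log2 fold change of -0.23 (adjusted p = 0.0444). IRF2 is known as a competitor of IRF1 on its binding sites. *Irf3*, *Irf4*, *Irf5* and *Irf8* did not pass the test. Of 16 SOCS, PIAS and phosphatase genes, which restrain JAK–STAT signalling, none was called higher and 2 were called lower with all libraries. Over all genes the shares were 6.65% and 6.18%. The lower genes were *Pias3* at -0.37 (adjusted p = 0.0160) and *Socs5* at -0.21 (adjusted p = 0.0231). *Ptpn1* was called higher, and *Pias1* and *Pias2* lower, without WDR6-WKO replicate 3, where 14.5% and 14.1% of all genes were called. *Socs1*, the main feedback inhibitor of JAK1 and TYK2 besides USP18, was counted at only 1.03 ± 0.298 CPM (n = 4, s.d.) in WT and 1.58 ± 0.214 CPM (n = 3, s.d.) in WDR6-WKO libraries. Its groups did not overlap, and the log2 fold change was 0.62 (SE 0.27, adjusted p = 0.149). *Socs3* stood at -0.22 (adjusted p = 0.143), also without overlap. None of the 4 scaffold and turnover genes was called.

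**Figure D4:**
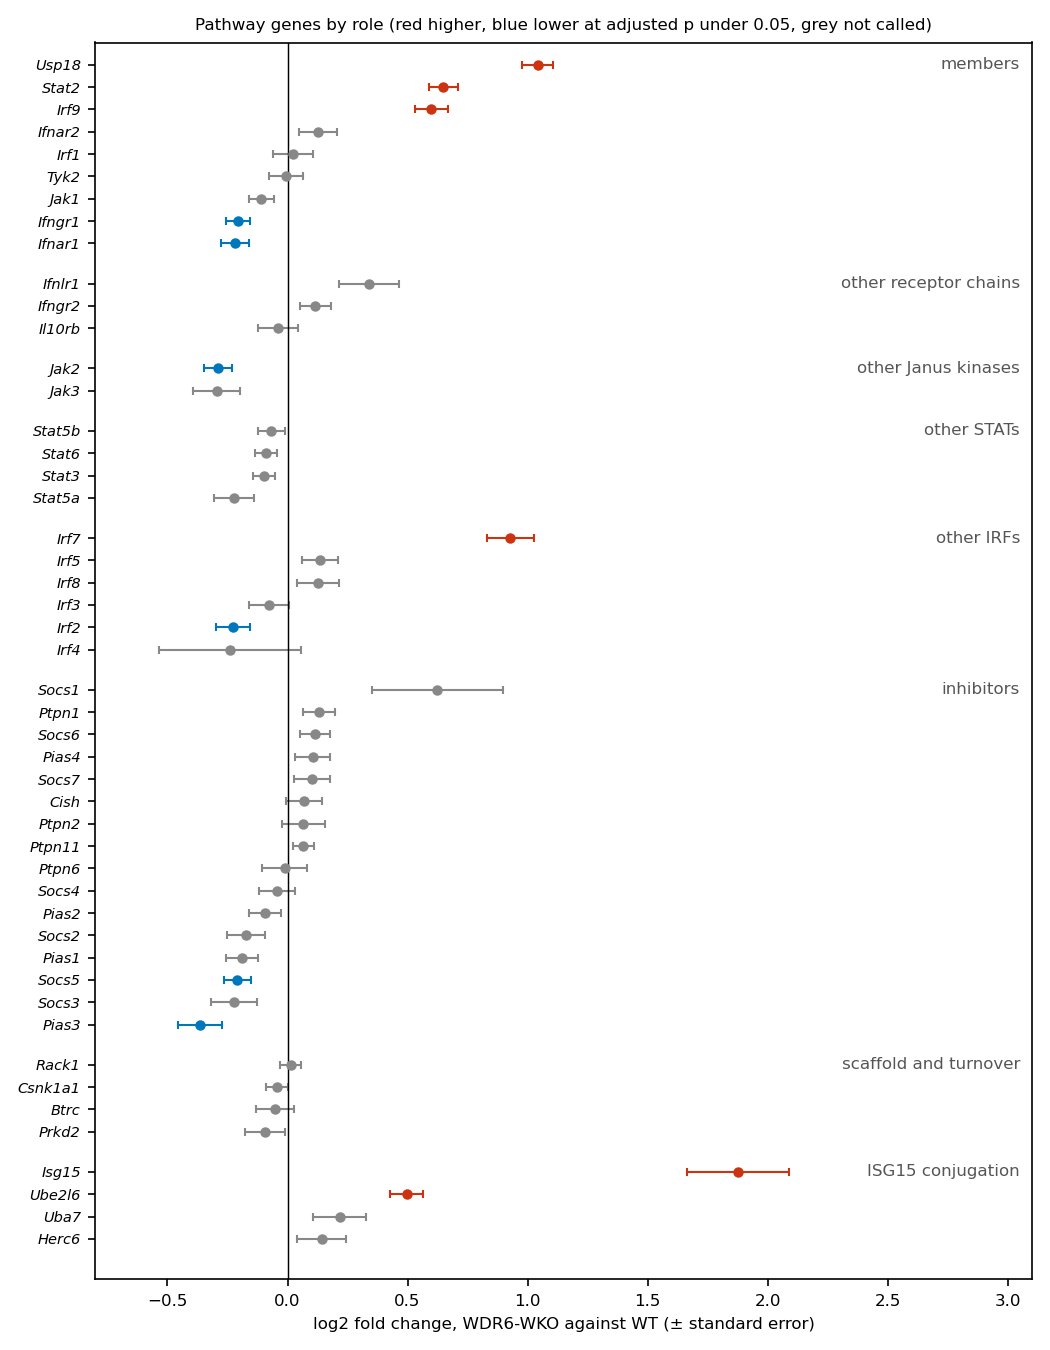
The log2 fold change of WDR6-WKO against WT (x axis) with its standard error for the 9 genes and the other pathway genes by role, red where called higher, blue where called lower and grey where not called. Higher genes are *Usp18*, *Stat2*, *Irf9*, *Irf7*, *Isg15* and *Ube2l6*, and *Ifnar1*, *Ifngr1*, *Jak2*, *Irf2*, *Socs5* and *Pias3* are lower.

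Genes downstream of the chain were counted in lists written with earlier results of these data known. Of 42 genes driven by ISGF3, 40 were called higher and none lower, where 6.65% of all genes were called higher. Their median log2 fold change was 0.89, with a range of 0.17 to 3.52. The smallest p values were those of the antiviral genes *Rsad2*, at 2.46 on the log2 scale, *Ifit3* at 2.37, *Oasl1* at 1.15 and *Ifit1* at 2.14. *Dtx3l* at 0.17 (adjusted p = 0.145) and *Epsti1* at 0.50 (adjusted p = 0.195) were not called. The median log2 difference of the list from the WT mean lay between -0.11 and 0.12 in the WT libraries and at 0.92, 0.87 and 0.91 in WDR6-WKO replicates 1 to 3. The count was again 40 higher and none lower without WDR6-WKO replicate 3, beside 14.5% and 14.1% of all genes.

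Of 26 genes listed as targets of interferon γ, 24 were tested, 12 were called higher and 1 lower, with a median of 0.38. Of all genes, 6.65% were called higher and 6.18% lower. Whether interferon γ acted on the listed genes was not tested. The guanylate-binding proteins *Gbp3* and *Gbp2* rose by 1.49 and 1.09, and the immunity-related GTPases *Irgm1* and *Igtp* by 0.53 and 0.74. Another GTPase of that family, *Iigp1*, was lower at -0.34 (adjusted p = 0.0142). The chemokine *Cxcl9* at 0.39 (adjusted p = 0.178) and the adhesion molecule *Icam1* at -0.09 did not pass the test. Nor did the immunoproteasome subunits *Psmb8* and *Psmb9*, at 0.37 and 0.32. *H2-Ab1*, *Cd74* and *Ido1* were also not called (adjusted p = 0.544, 0.366 and 0.359). Without WDR6-WKO replicate 3 the count was 16 higher and 1 lower, beside 14.5% and 14.1% of all genes. The genes added were *Psmb8*, *Psmb9*, *Psmb10* and *Tap2*.

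Lists for other STATs gave other counts. The STAT3 list held acute phase genes and the receptor chains *Il6ra*, *Il6st* and *Osmr*. Of its 14 genes, 5 were higher (*Lcn2*, *Hamp*, *Saa3*, *Saa1* and *Il6ra*) and 3 lower (*Fgb*, *Fga* and *Il6st*), with a median of 0.02. Of all genes, 6.65% were called higher and 6.18% lower. Without WDR6-WKO replicate 3 the counts were 6 higher and 3 lower, beside 14.5% and 14.1% of all genes. *Saa2* was added to the higher genes, and *Osmr* took the place of *Fga* among the lower. The receptor gene *Il6st*, the signalling chain for interleukin 6, was at -0.19 (adjusted p = 0.0377). Of 7 tested growth hormone genes driven by STAT5, *Mup20* was higher at 0.42, and *Igf1*, *Igfals*, *Ghr*, *Cyp7b1* and *Onecut1* were lower, from -0.20 to -1.18. The median of the 7 was -0.25, and beside these counts 6.65% of all genes were called higher and 6.18% lower. Without WDR6-WKO replicate 3 the counts of 1 higher and 5 lower were the same, beside 14.5% and 14.1% of all genes.

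**Figure D5:**
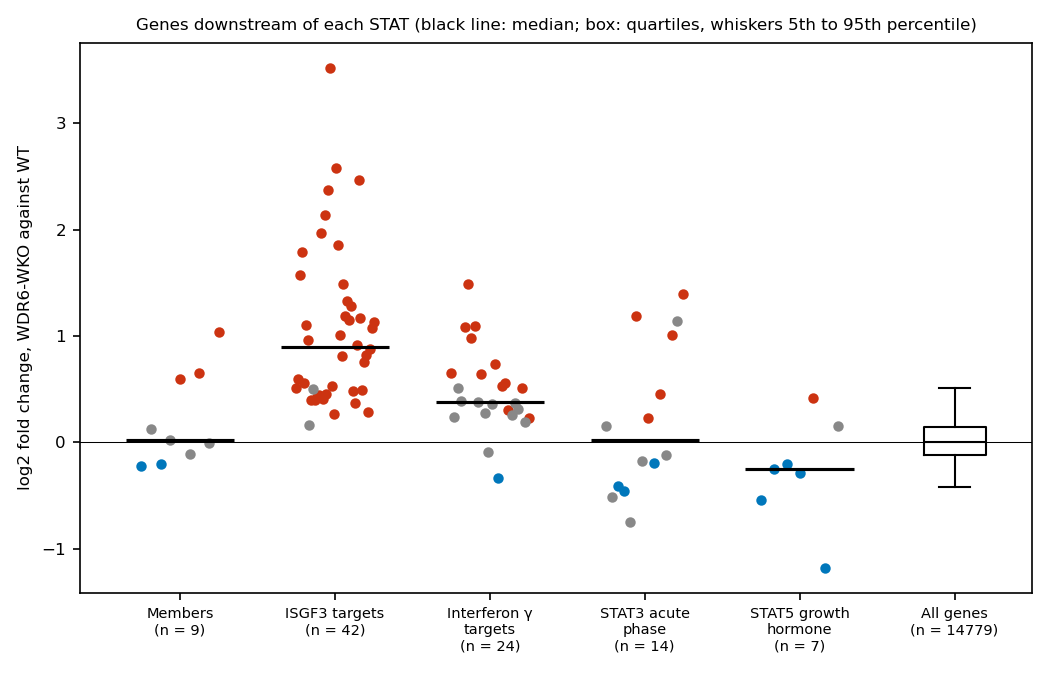
The log2 fold change (y axis, WDR6-WKO against WT) of each tested gene in the 9-gene set and in the lists of ISGF3, interferon γ, STAT3 and STAT5 genes, red where called higher, blue lower and grey not called, with a line at the median, beside a box of the quartiles with 5th to 95th percentile whiskers over all 14779 genes. The ISGF3 list sits highest with a median of 0.89, and the 9 genes are split around 0.02.

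Primary hepatocyte preparations can hold other liver cells, and in bulk RNA a change in the number of cells of a type cannot be told apart from a change in RNA per cell. Of 17 tested markers of Kupffer cells, the liver's macrophages, 7 were called higher (*Cd14*, *C1qb*, *C1qc*, *Lyz2*, *Fcgr1*, *Tyrobp* and *Fcer1g*) and none lower, against 6.65% and 6.18% of all genes. Their summed level was 1031 to 1095 CPM in WT and 1305, 1396 and 1184 CPM in WDR6-WKO replicates 1 to 3. The defining markers *Clec4f* and *Adgre1* did not pass the test (adjusted p = 0.311 and 0.0866). *Clec4f* was counted at 117 ± 5.62 CPM (n = 4, s.d.) in WT and 126 ± 10.4 CPM (n = 3, s.d.) in WDR6-WKO libraries. *Adgre1* was at 16.9 ± 1.74 and 20.1 ± 0.919 CPM, with every WDR6-WKO library above every WT library. *Timd4*, another marker of resident Kupffer cells, had the opposite sign, at 3.65 ± 0.523 CPM (n = 4, s.d.) and 2.59 ± 0.278 CPM (n = 3, s.d.), without overlap and without passing the test (adjusted p = 0.0880). The part of macrophage RNA in the levels of *Stat2*, *Irf9*, *Usp18* and the ISGF3 genes was not tested. The median log2 fold change of these markers was 0.25. Without WDR6-WKO replicate 3 the count was 11 higher and none lower, against 14.5% and 14.1% of all genes. The genes added were *Csf1r*, *Marco*, *Cd5l* and *C1qa*.

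Hepatocyte markers were the most abundant, with a sum of 15871 to 18828 CPM in WT and 14282 to 16318 CPM in WDR6-WKO libraries. Of 11 tested, none was higher and *Apoa1*, *Cps1*, *Pck1*, *Hnf4a* and *Fgb* were lower, with *Apob* and *Serpina1a* added without WDR6-WKO replicate 3. Beside this count and those of the cell types below, 6.65% of all genes were called higher and 6.18% lower. Without that library the shares were 14.5% and 14.1%. *Alb* had a level of 7366 ± 730 CPM (n = 4, s.d.) in WT and 6480 ± 363 CPM (n = 3, s.d.) in WDR6-WKO libraries (adjusted p = 0.101). The 5 tested markers of bile duct cells, in sum mostly *Spp1*, stood at 3068 to 3360 CPM and 3714 to 4306 CPM. Of them, *Spp1* and *Sox9* were called higher. The keratins *Krt19* and *Krt7*, at -0.05 and -0.10 on the log2 scale, did not pass the test (adjusted p = 0.783 and 0.784). Nor did *Epcam*, at 0.34 (adjusted p = 0.571). Of 10 stellate cell markers *Dcn* and *Acta2* were higher, with sums of 678 to 739 CPM and 731 to 797 CPM, and 4 were higher without WDR6-WKO replicate 3, *Dcn* not among them. Of 10 endothelial markers *Tek* was lower, with sums of 417 to 476 CPM and 392 to 463 CPM. *Ptprc* was the only one of 11 T and NK cell markers with a row, at 14.9 ± 1.34 CPM (n = 4, s.d.) and 14.6 ± 0.587 CPM (n = 3, s.d.). Of 8 B cell and plasmacytoid dendritic cell markers *Bst2*, itself an ISGF3 gene, and *Tcf4* had rows, and of 6 neutrophil markers *Csf3r* did. The part of these cells in the 9 genes was not tested.

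The genes whose log2 CPM ran most like the mean of *Stat2* and *Irf9* over the 7 libraries were *Ifit1* (Pearson's r = 0.998), *Polr1a* (0.996), *Oasl2* (0.995), *Efnb2* (0.995) and *Ms4a8a* (0.994). Their log2 fold changes ran from 0.15 for *Polr1a* (adjusted p = 0.0506) to 2.14 for *Ifit1*, so a like pattern went with unlike sizes. Of the 9 genes, *Usp18* followed the same mean at r = 0.994, and *Ifngr1* and *Ifnar1* ran against it at -0.911 and -0.830. These correlations describe 7 libraries in 2 groups and follow mainly the difference between the groups.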

How the data were processed

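Hepatocyte RNA of WT and WDR6-WKO mice, in 4 and 3 libraries, was sequenced on an Illumina HiSeq platform. The authors aligned the reads to mm10 with Bowtie2 2.2.3 (per the submitters' processing notes) and deposited raw, unscaled read counts by gene symbol. The counting tool, annotation and strand setting are not given in the sources used here. A row is present only from a total of 50 counts, so low genes could not be seen.

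Counts were scaled by TMM, filtered with filterByExpr and tested with edgeR 4.0.16 (robust quasi-likelihood test, no block) in R 4.3.3, with adjustment over 14779 genes. The biological coefficient of variation was 7.40%. Groups and replicates followed the labels, and no libraries were copies of each other (chi-square of 3.84 to 16.2 per gene). The study states of its replicates in general that they were biological, not technical, and ties no sample to a preparation day. P values measure the spread between these samples. Single genes were also tested by exact permutation over 35 splits. Alternatives were DESeq2 1.42.0, limma-voom 3.58.1, other size factors and filters, the replicate number as a block, each library left out, and the fold threshold of 0.35 with an unadjusted P from the study's methods.

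The members and lists were chosen with earlier results of these data known. Named genes were the 9 members, *Wdr6*, up to 4 genes with the smallest p in each direction of each pathway list, each cell type list's most abundant and called genes, and the 5 genes most like *Stat2* and *Irf9*. Other genes were named after their values were seen. Results for 2 genes of the pathway lists are not reported here, and the counts leave them out. Gene models came from GENCODE M21 (GRCm38) and promoters from RefSeq (GRCm38.p6). The steps were tested on simulated data.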

Additional observations from a re-analysis of the deposited data

Results flagged for a closer look

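In the WT group, 3 values stood far from the other 3 samples by Dixon's test, of 62 sets of WT values checked, where chance flags about 1 in 20. *Ube2l6* was counted at 48.5 CPM in WT replicate 1 and at 56.6 to 58.0 CPM in the other WT libraries. *Onecut1* was counted at 5.48 CPM in WT replicate 3 against 4.44 to 4.57 CPM. *Lyz2* was counted at 52.4 CPM in WT replicate 3 against 48.0 to 48.6 CPM. None of the 9 receptor and JAK–STAT genes was among them.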

How the results depend on the processing

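*Stat2*, *Irf9* and *Usp18* kept their direction and call in all 14 alternatives, and 3 or 4 of the 9 genes were called higher throughout. The number called lower was 2, and 0 to 3 with each library left out: 1 without WT replicate 3, 0 without WT replicate 4 or WDR6-WKO replicate 1 or 2, and 3 without WDR6-WKO replicate 3. With the study's fold threshold and unadjusted P it was 0, since both changes are smaller than that threshold. Over all genes, leaving out 1 library gave 570 to 2150 genes higher and 462 to 2083 lower, the highest without WDR6-WKO replicate 3, and the study's thresholds gave 583 lower. Of the other pathway genes, 3 to 5 were higher and 1 to 8 lower with a library left out, the most without WDR6-WKO replicate 3, and 1 was lower under the study's thresholds, where none of the interferon γ list was lower (0). The log2 fold change of *Tyk2* turned to 0.0197 with library sizes alone and 0.0034 with the replicate block, and ran from -0.0720 to 0.0466 with a library left out, above 0 without WT replicate 1 or 4 or WDR6-WKO replicate 3. That of *Irf1* ran from -0.0373 to 0.0791, below 0 without WT replicate 2 or WDR6-WKO replicate 1. The cause was not tested.

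Replicate numbers are shared by the genotypes, but same-numbered libraries did not deviate together (r = 0.0396, 0.0202 and 0.0379), so no pairing was assumed. With the number as a block, 945 genes were called higher and 817 lower, and 3 and 2 of the 9 genes. Intervals cover 7 samples, and genes with a row total under 50 counts could not be examined.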
